A study of Mus musculus with 4 samples.

Results

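Natural killer (NK) cells were examined in transplanted mouse mammary tumours grown from the mouse breast cancer line Py8119. The cells were chosen by their own UMI counts: a cell was taken as NK when it held at least 1 unique molecular identifier (UMI) of Ncr1, Klrb1c, Klra7 or Klra8 and at least 1 UMI of Nkg7, with 0 UMIs of Cd3d, Cd3e, Cd3g, Cd8b1 and Csf1r. It also needed fewer than 10 UMIs per 10000 of the tumour genes Krt8, Krt18, Tm4sf1 and Cdkn2a together, fewer than 10 per 10000 of the C1q genes C1qa, C1qb and C1qc together, and at least 300 detected genes. This gave 280 of the 45220 cells. They comprised 100 and 121 cells in 2 tumour libraries with Sema4d knocked down by a short hairpin RNA (Sema4d-shRNA) and 28 and 31 cells in 2 control libraries (NC). Sema4d encodes a semaphorin that binds plexin receptors, and the title of the study places the question in the tumour cells' own Sema4d. All 4 tumours were Py8119 transplants and were processed with droplet single-cell RNA sequencing. The labels give neither the age of the mice nor how many mice or cell clones stand behind a library.

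NK cells are innate lymphocytes that kill stressed, infected or transformed cells without a rearranged antigen receptor. Their activity is set by the balance of activating and inhibitory surface receptors, many of them lectin-like receptors of the Klr gene family, which signal through adaptors such as Tyrobp and Fcer1g. Killing is carried out by granules of perforin and granzymes, and the cells also release interferon-gamma and chemokines such as Ccl5 and Xcl1 that act on T cells and dendritic cells.

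Sema4d, the knocked-down gene, had 4.29 and 5.93 CPM in the keratin-expressing cells of the Sema4d-shRNA libraries against 6.88 and 8.15 CPM in those of the NC libraries, low in both and not overlapping. The libraries held 10575 and 13173 cells with Sema4d-shRNA and 10874 and 10598 cells with NC, at 83513906 to 119758159 UMIs per library and a median of 5690 to 8180 UMIs per cell. NK cells were shallower than the average cell, with a median of 2080 and 2320 UMIs in the Sema4d-shRNA libraries and 2785 and 1816 in the NC libraries. The sums that the gene comparisons rest on came to 315681 and 536204 UMIs with Sema4d-shRNA and 95413 and 84271 with NC. The share of mitochondrial UMIs separated the groups in every kind of cell: its median over all cells was 0.275% and 0.368% in the Sema4d-shRNA libraries, against 0.979% and 0.882% in the NC libraries. Of the 280 NK cells, 14 carried at least 30 UMIs per 10000 of 8 genes that mark the tumour cells (Cald1, Sparc, Timp1, Fn1, Mgp, H19, Ccnd1 and Cnn3). These were 4 and 9 cells with Sema4d-shRNA and 1 and 0 cells with NC, and they held 14.7% and 26.7% of the NK UMIs with Sema4d-shRNA and 18.0% and 0% with NC. A single cell of Sema4d-shRNA library 2 had 70666 UMIs, 13.2% of its library's NK sum. Where leaving these cells out ended a call or moved a value by much, both values are given.

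NK cells were compared below by whether they held a Gzmc UMI. The stretches upstream of Gzmc and of Gzmf, a granzyme gene near it, are therefore shown together with that of Gzma, which was present in most NK cells. Gzmc lies at chr14:56231441-56234656 on the minus strand and Gzma at chr13:113093825-113100981 on the minus strand (GRCm38, GENCODE M21), and Gzmf, Gzmd, Gzme and Gzmg lie in the same stretch of chromosome 14 as Gzmc. The 250 bases before the RefSeq start (GRCm38.p6) are printed 5′ to 3′ on the strand of the gene, with TGTGGT, the letters of a Runx site, in capitals on either strand (ACCACA where it lies on the other strand). The first is chr14:56234658-56234907, the second chr14:56211408-56211657 and the third chr13:113100982-113101231.
Gzmc: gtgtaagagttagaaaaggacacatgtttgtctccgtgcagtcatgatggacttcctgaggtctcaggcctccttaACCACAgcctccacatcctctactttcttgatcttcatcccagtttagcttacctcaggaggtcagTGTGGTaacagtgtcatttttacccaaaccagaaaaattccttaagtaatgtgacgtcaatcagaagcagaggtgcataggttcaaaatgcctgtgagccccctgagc
Gzmf: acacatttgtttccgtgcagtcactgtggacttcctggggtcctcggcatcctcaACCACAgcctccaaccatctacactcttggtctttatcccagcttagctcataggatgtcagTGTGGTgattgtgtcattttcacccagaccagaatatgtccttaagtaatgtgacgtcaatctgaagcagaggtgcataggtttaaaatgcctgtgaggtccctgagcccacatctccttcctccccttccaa
Gzma: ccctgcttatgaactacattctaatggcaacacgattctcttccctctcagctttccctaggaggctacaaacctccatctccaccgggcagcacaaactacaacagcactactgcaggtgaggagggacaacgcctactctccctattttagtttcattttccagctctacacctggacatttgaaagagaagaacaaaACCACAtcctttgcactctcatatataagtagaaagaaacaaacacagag

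The Gzmc and Gzmf stretches align over 225 bases at 85.8% identity, with gaps, and both hold TGTGGT once on each strand, at -108 and -174 in Gzmc and at -133 and -195 in Gzmf. Over the 10 pairs among Gzmc, Gzmd, Gzme, Gzmf and Gzmg, the promoter stretches were 84.4% to 95.6% identical and the transcripts 74.6% to 94.8%. Transcripts of the pairs with Gzmc were 74.6% to 76.4% identical, and those of the other pairs 86.4% to 94.8%. Reads of Gzmd, Gzme, Gzmf or Gzmg could thus be counted under one another, and the split of UMIs among these genes is uncertain. Whether reads were also shared with Gzmc was not tested. Gzma holds 1 match at -50, and TGTGGT occurs on either strand in 14% of the 32851 promoters in the table. TCACAC, a T-box core searched on both strands, was in 12.3% of promoters and in neither Gzmc, Gzmf nor Gzma. A match of letters is a description and not a binding site.

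The genes that chose the cells were, by construction, present. Over the NK sums, Ncr1, an activating receptor restricted to innate lymphocytes, had 101 and 175 CPM (UMIs scaled to a common total per sum) with Sema4d-shRNA and 105 and 119 CPM with NC. Klrb1c, the NK receptor recognised by a standard NK antibody, had 539 and 380.5 CPM with Sema4d-shRNA and 524 and 676 CPM with NC. The rule left some cells near its edge: 69 of 280 (24.6%) had exactly 1 UMI of the 4 receptors and 33 had exactly 1 UMI of Nkg7. Cells with exactly 1 receptor UMI had 5096 CPM of Gzma and 1949 CPM of Tyrobp when summed, and those with 2 or more had 5905 and 2445 CPM. Just outside, the 248 cells that failed only for want of a receptor UMI had 139 CPM of Gzma and 160.4 CPM of Tyrobp, and the 61 cells that failed only for want of Nkg7 had 217 and 253 CPM. A further 145 cells failed only by a Cd3, Cd8b1 or Csf1r UMI, and they had 1503 CPM of Gzma and 925 CPM of Tyrobp.

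Markers outside the rule were read next. Eomes, a transcription factor of the NK lineage, was detected in 93 of 280 NK cells (33.2%), against 4.07% of Cd3 cells and 0.609% of keratin-expressing cells. When each cell was thinned to 1000 UMIs these shares were 17.5%, 1.38% and 0.0341%. Of the longer marker lists of other lineages, these members were at 0 UMIs over all NK cells: Cd8a, Cd5, Cd6 and Foxp3 of the T lineage, Ms4a1 and Jchain of the B lineage, Flt3, Xcr1, Clec9a, Cd209a and Siglech of dendritic cells, and Il13, Il23r and Il5 of other innate lymphocytes. T-cell receptor constant genes were not analysed here. Other members were not at 0. The 13 T-cell genes outside the rule summed to 719 and 662 CPM with Sema4d-shRNA and 482 and 475 CPM with NC, against 2648 to 3003 CPM in Cd3 cells. The remaining dendritic gene, Itgax, had 35.6 to 74.6 CPM, the list of other innate lymphocytes summed to 10.5 to 71.2 CPM, and neutrophil genes summed to 52.4 CPM in NC library 1 and 0 in the others. The 8 macrophage genes outside the rule summed to 953 and 1434 CPM with Sema4d-shRNA and 681 and 736 CPM with NC, against 21041 to 24061 CPM in C1q macrophages. Without the cells that carry tumour RNA they summed to 757 and 954 CPM with Sema4d-shRNA and 652 and 736 CPM with NC. Spp1, treated below among the cytokines, is among these 8 genes. Over all NK cells it alone had 814 and 1305 CPM with Sema4d-shRNA and 335 and 392 CPM with NC. The higher macrophage sum with Sema4d-shRNA thus rested on Spp1. The 4 tumour genes outside the rule summed to 4172 and 7240 CPM with Sema4d-shRNA and 3385 and 1649 CPM with NC, against 15971 to 20067 CPM in keratin-expressing cells. Without the cells that carry tumour RNA they summed to 2506 and 2774 CPM with Sema4d-shRNA and 1522 and 1649 CPM with NC. Most of the tumour sum in NK cells was S100a6 in every library.

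The first question was whether NK cells made up a different part of the tumours with Sema4d knocked down. NK cells were 0.948% (95% Clopper-Pearson interval 0.772 to 1.15%) and 0.921% (0.765 to 1.10%) of the cells in the Sema4d-shRNA libraries. They were 0.258% (0.172 to 0.373%) and 0.293% (0.199 to 0.416%) of the cells in the NC libraries. The groups did not overlap, and the mean was 0.935 ± 0.0192% with Sema4d-shRNA and 0.276 ± 0.0247% with NC (SD, n = 2 each), a ratio of 3.39. The exact two-sided permutation test gave p = 0.33, the smallest value that 2 against 2 libraries allow, and the intervals cover counting error only. The ratio stayed between 3.24 and 3.91 under 7 other ways of setting the cells or the denominator, among them 2 receptor UMIs (3.24), equal depth of 1000 UMIs per cell (3.58), exclusion of cells with tumour RNA (3.25) and non-keratin cells as the denominator (3.91).

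Among lymphocytes alone the picture differed. Cd3 cells, with at least 2 UMIs of Cd3d, Cd3e and Cd3g together, numbered 308 and 703 with Sema4d-shRNA and 263 and 176 with NC, 1450 in all, and no cell was in both sets. NK cells were 24.5% and 14.7% of NK plus Cd3 cells with Sema4d-shRNA, and 9.62% and 15.0% with NC. The groups overlapped, since Sema4d-shRNA library 2 lay just below NC library 2. In 3 of 7 alternatives (2 receptor UMIs, equal depth, and no keratin or C1q limits) they did not overlap, by a narrow margin in each, and the exact permutation p was 0.33. The mean was 19.6 ± 6.95% with Sema4d-shRNA and 12.3 ± 3.79% with NC (SD, n = 2 each; exact permutation p = 0.667), a difference smaller than the spread between libraries allows to call. Shares of a dissociated tissue depend on all the other cells recovered, and the number of NK cells per tumour was not measured.

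**Figure D1:**
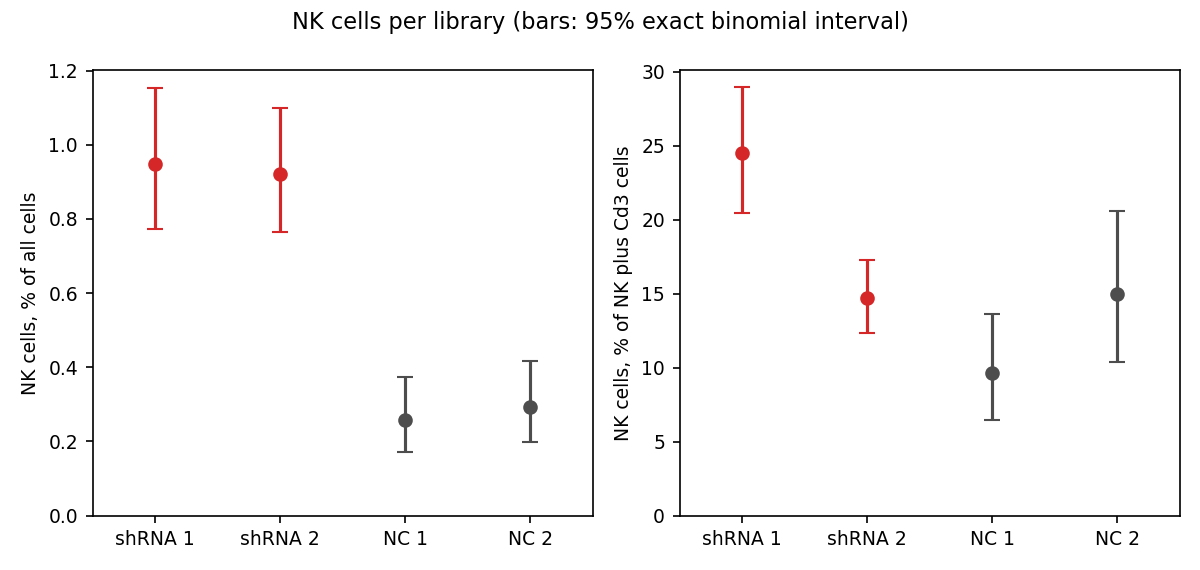
NK cells per library, as a percent of all cells (left) and of NK plus Cd3 cells (right), with 95% exact binomial intervals. The 2 Sema4d-shRNA libraries (0.948% and 0.921%) lie above both NC libraries (0.258% and 0.293%) on the left, and the groups overlap on the right.

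NK cells were then compared with the Cd3 cells of the same libraries, by summing UMIs per library and cell set and testing the sums with edgeR's quasi-likelihood test with the library as a block. The genes that set the 2 gates were left out of the test. Of 6798 genes tested, 185 were higher in NK cells (2.72%) and 231 lower (3.4%), 6.12% together, at a Benjamini-Hochberg adjusted p under 0.05, and the median log2 difference over all genes was -0.02. Cd3 cells held 1089956 and 2415406 UMIs in the Sema4d-shRNA libraries and 985629 and 549181 UMIs in the NC libraries, so their values had less counting error than those of NK cells. The gene lists below were compiled from general knowledge of NK biology, but with earlier results of these data known. The share of a list that passed is set beside those 2.72% and 3.4% as a description, not as independent support.

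Activating receptors and the adaptors that carry their signal stood out. Of 14 activating receptor genes tested, 9 were higher in NK cells and 2 lower, with a median log2 difference of 1.54. Klrk1, the receptor for stress-induced ligands known as NKG2D, had 348 and 306 CPM in NK cells of the Sema4d-shRNA libraries and 429.7 and 510.3 CPM in those of the NC libraries, against 177, 219.8, 155 and 177 CPM in the Cd3 cells of the same libraries. The sets did not overlap (log2 0.96, SE 0.16, adjusted p = 9.02e-05). Klrb1a, Klrb1f, Klrc2, Klre1, Klri2, Klra4, Cd244 and the Fc receptor gene Fcgr3 were also higher, with Klrb1f at a log2 difference of 4.04 and Klrb1a at 3.45. Klra4 had a log2 difference of 4.52 but also 172 to 194 CPM in keratin-expressing cells, so its UMIs were not particular to lymphocytes. Cd226 and Crtam, adhesion receptors that T cells also use, were lower in NK cells. The Klra and Klrb genes are close copies of one another, and the split of UMIs within each family is uncertain. Klrb1c, Klra7 and Klra8, which helped to choose the NK cells, belong to these families. Higher values of the other members may thus be favoured by the gate.

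Tyrobp, the adaptor of several activating receptors, had 2816, 2167, 1960 and 2397 CPM in NK cells of Sema4d-shRNA libraries 1 and 2 and NC libraries 1 and 2, against 125, 137, 107 and 78.3 CPM in the Cd3 cells. This was the largest separation among the adaptors (log2 4.28, SE 0.14, adjusted p = 4.48e-22). Tyrobp was detected in 95% of NK cells, 14.3% of Cd3 cells and 22.9% of the far deeper keratin-expressing cells, and at equal depth in 86.8%, 7.45% and 3.003%. Fcer1g, the adaptor of Ncr1 and of Fc receptors, was higher at a log2 difference of 3.10 (SE 0.12, adjusted p = 3.26e-20). Of 13 adaptor and kinase genes tested 5 were higher, the others being Sh2d1b1, Syk and Lat2, and 3 were lower. The lower ones were those of the T-cell receptor route: Lat had 44.3, 26.1, 52.4 and 23.7 CPM in NK cells against 363, 304, 357 and 353 CPM in Cd3 cells (log2 -3.31, SE 0.22, adjusted p = 3.15e-13), and Zap70 and Cd247 were lower by a log2 difference of -1.07 and -1.01. The Cd247 call was lost in 5 of 13 alternative settings.

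Among 9 inhibitory receptor genes 4 were higher in NK cells and 1 was lower, with a median log2 difference of 1.30. The higher ones, Klra1, Klra3, Klra9 and Klrb1b, all belong to the families of the gate genes, so the gate may favour this count. Klra9 had 155, 129, 157 and 249 CPM in NK cells against 7.34, 6.62, 10.1 and 1.82 CPM in Cd3 cells (log2 4.41, SE 0.30, adjusted p = 5.63e-13). Klrb1b was higher by 4.22, and Klra3 by 2.28. Klrc1, which encodes an inhibitory chain that pairs with Klrd1, was lower by -0.62 (SE 0.18, adjusted p = 0.0323), and this call held in 6 of 13 alternatives. Klrd1 itself had a log2 difference of 0.18 (adjusted p = 0.675), with 293 to 498 CPM in NK cells and 250.5 to 384 CPM in Cd3 cells.

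Of 22 genes of the cytotoxic granule, 7 were higher in NK cells and 1 lower, with a median log2 difference of 0.40. Gzma, a tryptase of the granule, had 8338 and 3441 CPM in NK cells of the Sema4d-shRNA libraries and 8343 and 8129 CPM in those of the NC libraries, against 839, 151, 386 and 348 CPM in Cd3 cells. Every NK sum lay above every Cd3 sum (log2 4.11, SE 0.25, adjusted p = 0.000808), although without NC library 1 the adjusted p was 0.0854. It was detected in 80.0% of NK cells and 8.90% of Cd3 cells, and at equal depth in 74.6% and 6.55%, against 0.199% of keratin-expressing cells. Gzmb and perforin (Prf1) differed less. Gzmb had 2712, 1634, 1866 and 2089 CPM in NK cells against 1659, 1050, 1118 and 1295 CPM in Cd3 cells (log2 0.62, SE 0.10, adjusted p = 2.24e-05), so NK cells of Sema4d-shRNA library 2 lay just below Cd3 cells of library 1. Prf1 had 599, 461, 482 and 498 CPM in NK cells against 284, 354, 325 and 220.3 CPM in Cd3 cells (log2 0.70, SE 0.15, adjusted p = 0.00185), a call lost without Sema4d-shRNA library 1. Serpinb9, an inhibitor that shields a killer cell from its own granzyme B, was higher by 1.45 (SE 0.19). Gzmk, a granzyme of memory-type T cells, was lower by -2.22 (SE 0.48).

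Several soluble and surface-bound effectors were lower. Of 5 tumour necrosis factor family ligands tested 4 were lower in NK cells and none higher (median log2 difference -1.94): Lta, Ltb, Tnf and Tnfsf10. Lta, the ligand lymphotoxin alpha, had 12.7, 3.73, 0 and 0 CPM in NK cells against 119, 75.8, 49.7 and 87.4 CPM in Cd3 cells (log2 -3.92, SE 0.41, adjusted p = 1.47e-08). Fasl, which triggers death through Fas, had 42.9 to 73.4 CPM in NK cells and 42.6 to 57.8 CPM in Cd3 cells (log2 0.09, adjusted p = 0.93). Of 10 cytokine and chemokine genes, Ifng, Ccl3 and Ccl4 were lower, Xcl1 was higher and the other 6 did not pass. Ifng, the gene of interferon-gamma, had 168, 82.1, 62.9 and 83.1 CPM in NK cells against 631, 451, 325 and 466 CPM in Cd3 cells (log2 -2.28, SE 0.18, adjusted p = 2.29e-11), with no overlap. Ccl4, a chemokine that attracts other leukocytes, had 509 to 995 CPM in NK cells and 1716 to 2313 CPM in Cd3 cells (log2 -1.57, SE 0.12). Xcl1, which attracts cross-presenting dendritic cells, was higher by 0.64 (SE 0.14, adjusted p = 0.00211) and held in 9 of 13 alternatives. Ccl5 did not pass (log2 0.22, adjusted p = 0.652).

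**Figure D2:**
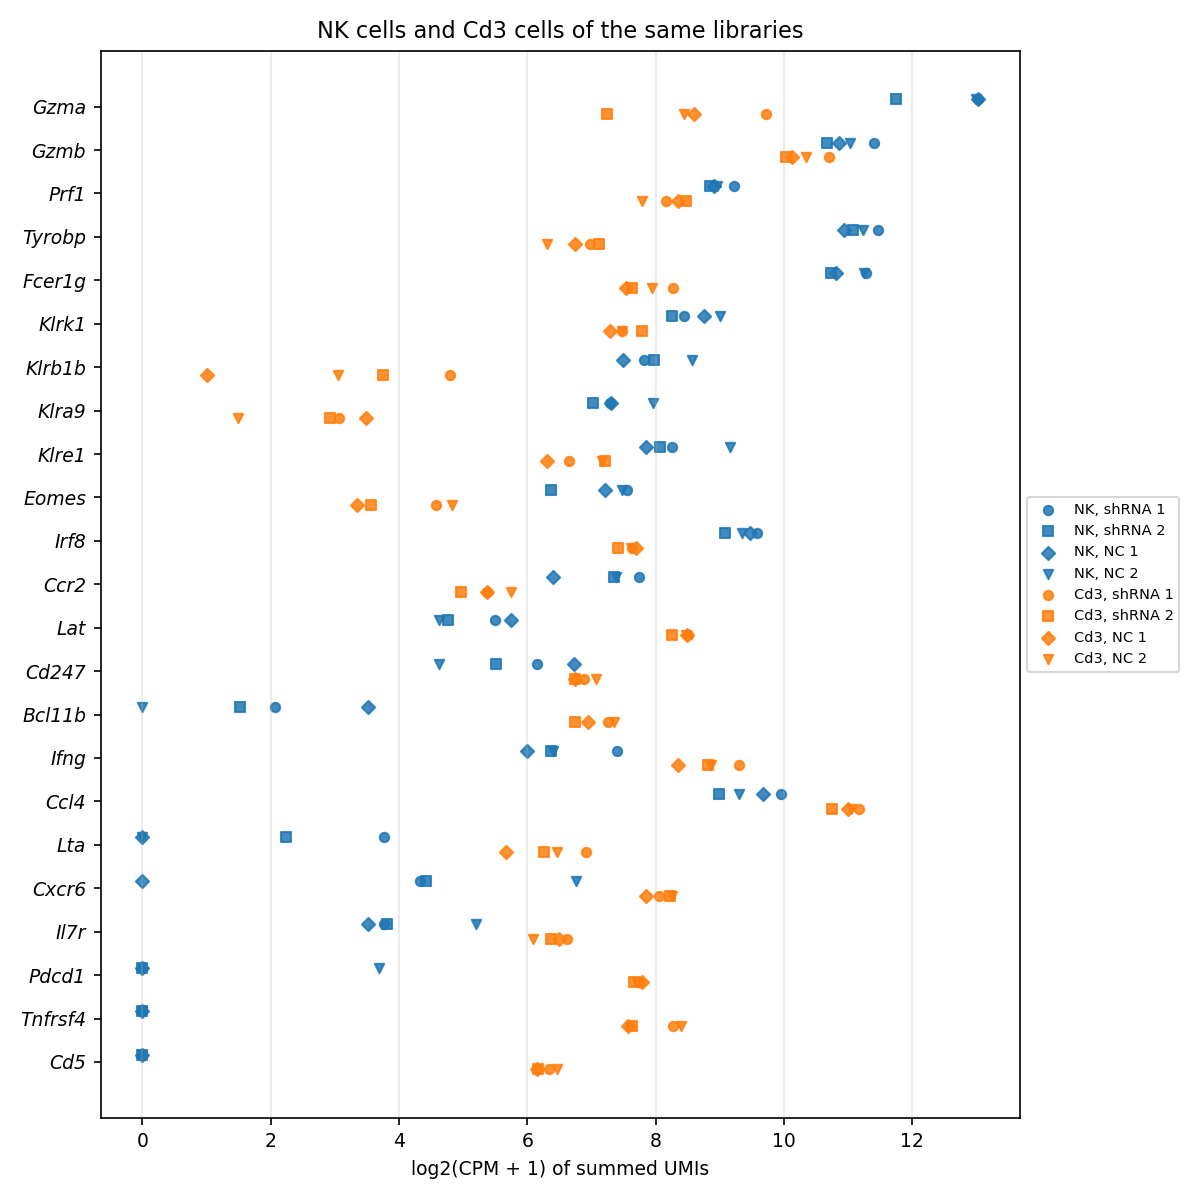
Expression of 23 genes in NK cells (upper points of each row) and Cd3 cells (lower points), as log2(CPM + 1) of UMIs summed per library, with 1 marker shape for each library. Gzma, Tyrobp, Fcer1g, Klra9 and Eomes are higher in NK cells of all 4 libraries, and Lat, Bcl11b, Ifng, Lta, Cxcr6 and Tnfrsf4 are lower.

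Receptors for cytokines and for homing cues differed gene by gene. Of 21 cytokine receptor and signalling genes, Ifngr1 was higher in NK cells and Il2ra, Il21r, Il7r, Cish and Jak3 were lower. Il7r, the receptor chain that sustains resting T cells, had 10.5 to 35.6 CPM in NK cells and 67.4 to 97.3 CPM in Cd3 cells (log2 -2.56, SE 0.34). Of 15 homing and adhesion genes 3 were higher, among them Ccr2, and 5 were lower: Cxcr3, Cxcr6, Ccr7, Cx3cr1 and Itgb2. Ccr2, a receptor for monocyte-attracting chemokines, had 212, 162, 83.8 and 166 CPM in NK cells against 40.4, 30.2, 40.6 and 52.8 CPM in Cd3 cells (log2 2.02, SE 0.23, adjusted p = 8.36e-08). Cxcr6, a receptor of tissue-resident lymphocytes, had 19, 20.5, 0 and 107 CPM in NK cells against 263, 297, 230.3 and 306 CPM in Cd3 cells (log2 -3.45, SE 0.31, adjusted p = 1.23e-08).

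Genes that separate conventional NK cells from type 1 innate lymphoid cells went both ways. Of 12 residency and innate lymphoid genes 3 were higher (Ctla2a, Ctla2b and Cd9) and 4 lower (Cxcr6, Tnfsf10, Il7r and Inpp4b). Itga1, an integrin of tissue-resident innate lymphoid cells, had 10.5 to 71.2 CPM in NK cells and 11 to 31 CPM in Cd3 cells and did not pass (log2 0.45, adjusted p = 0.675). Of 10 maturation genes Itgam, Itga2 and Irf8 were higher and Cd27 and Cx3cr1 lower. Itga2, the integrin chain recognised by a second standard NK antibody, was higher by 4.30 (SE 0.89, adjusted p = 0.00121), on 12.7, 14.9, 62.9 and 23.7 CPM in NK cells against 0, 1.66, 0 and 1.82 CPM in Cd3 cells.

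Of 25 transcription factor genes 5 were higher and 4 lower. Eomes had 187, 82.1, 147 and 178 CPM in NK cells against 22.9, 10.8, 9.13 and 27.3 CPM in Cd3 cells (log2 3.01, SE 0.26, adjusted p = 1.98e-10), with no overlap. Irf8, a factor needed for NK effector function, had 543 to 763 CPM in NK cells and 170.2 to 207 CPM in Cd3 cells (log2 1.72, SE 0.14, adjusted p = 5.15e-11). Klf2, Runx3 and Id3 were the other higher ones, of which Runx3 held in 8 of 13 alternatives and Id3 turned to -0.63 without the cells that carry tumour RNA. Tbx21, the T-bet gene shared by NK cells and effector T cells, did not pass (log2 0.54, adjusted p = 0.188). Bcl11b, the factor that commits thymocytes to the T lineage, had 3.17, 1.86, 10.5 and 0 CPM in NK cells against 152, 106, 123 and 162 CPM in Cd3 cells (log2 -5.39, SE 0.43, adjusted p = 2.63e-11). Ikzf2, Rora and Maf were also lower.

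Most checkpoint and costimulatory receptors tested were lower in NK cells than in Cd3 cells. Of 14 tested 10 were lower and none higher, with a median log2 difference of -2.04: Havcr2, Lag3, Pdcd1, Ctla4, Entpd1, Icos, Cd28, Tnfrsf4, Tnfrsf18 and Cd5. Pdcd1, the gene of PD-1, had 0, 0, 0 and 11.9 CPM in NK cells against 213, 201, 219 and 209 CPM in Cd3 cells. Tnfrsf4 had no UMI among the 1031569 of all NK cells and was at least 80.8-fold lower than in Cd3 cells, counted against a floor of 3 counts over the NK set. All 12 T-cell genes tested were lower, a direction that the gates favour. Cd8a was at least 152-fold lower, a value that follows in part from the exclusion of Cd8b1, and Cd6 and Cd5 were at least 26.9-fold and 25.6-fold lower. Thy1, which some NK cells carry, had 405, 371, 178 and 154 CPM in NK cells against 792, 843, 754 and 752 CPM in Cd3 cells (log2 -1.47, SE 0.18).

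By size of change the 12 highest genes were Khdc1a, Klra4, Klra9, Itga2, Tyrobp, Klrb1b, Gzma, Klrb1f, Car2, Aoah, Gpr141 and Clnk, with Car2 given only as a description. Khdc1a had the largest log2 difference, 6.49 (SE 0.86), on only 11.9 to 69.7 CPM in NK cells and at most 0.917 CPM in Cd3 cells. Aoah, an enzyme that inactivates bacterial lipopolysaccharide, was higher by 3.71 (SE 0.46), and Clnk, an adaptor of immunoreceptor signalling, by 3.52 (SE 0.34). Car2, a carbonic anhydrase, was proposed as a marker of these cells from earlier results and is given as a description: it had 231 and 224 CPM with Sema4d-shRNA and 105 and 261 CPM with NC in NK cells, against 3.64 to 21.1 CPM in Cd3 cells. At the other end, 12 genes had no UMI in NK cells: besides Cd8a, Tnfrsf4, Cd6 and Cd5, these were Gm156, Slc17a6, Penk, Il1r2, Irf4, Fam169b, Sdcbp2 and Gpm6b, at least 10.0-fold to 27.4-fold lower.

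Lists on the general state of the cells differed in how many members passed. Of 22 S-phase and 23 G2/M genes, 1 each was lower (Dut and Cenpa) and none higher. Of 26 interferon response genes 1 was higher (Oasl1) and 3 lower (Igtp, Psmb8 and Psmb9), and none of 10 heat shock or 11 mitochondrial genes passed. The glycolysis list had 5 of 15 genes lower and none higher (median log2 difference -0.52), among them Aldoa (log2 -0.57, SE 0.11) and Ldha (log2 -0.54, SE 0.13). Of 21 immediate early genes Fos, Fosb and Jun were higher, which are also genes that rise during tissue dissociation. In the class I antigen presentation list 3 of 12 genes were lower, including B2m (log2 -0.41, SE 0.09). Sema4d itself did not pass between NK and Cd3 cells (log2 -0.34, SE 0.20, adjusted p = 0.478).

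NK cells were divided into cells with and without a UMI of Gzmc, a granzyme that activated killer cells make in addition to Gzma and Gzmb. Whether these are separate kinds of NK cell was not tested. At least 1 Gzmc UMI was found in 20 of 100 (20%) and 43 of 121 (35.5%) NK cells of the Sema4d-shRNA libraries and in 4 of 28 (14.3%) and 10 of 31 (32.3%) of the NC libraries, 77 of 280 in all. The share varied as much within a group as between groups. In Cd3 cells it was 8%, and in keratin-expressing cells 0.973%. Gzmc-positive NK cells were deeper, with a median of 4544, 5280 and 4216 UMIs in Sema4d-shRNA library 1, Sema4d-shRNA library 2 and NC library 2, against 1741.5, 1949 and 1609 UMIs in Gzmc-negative cells. Since NC library 1 had only 4 positive cells, the test used the other 3 libraries, with the library as a block. Of 2688 genes tested, 19 were higher in Gzmc-positive cells (0.707%) and 22 lower (0.818%), 1.53% together, with a median log2 difference of -0.01 over all genes.

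The chemokine Ccl5 had the smallest adjusted p among the lower genes. It had 186, 147 and 95.1 CPM in Gzmc-positive cells of Sema4d-shRNA library 1, Sema4d-shRNA library 2 and NC library 2, against 6830, 3710 and 5922 CPM in Gzmc-negative cells. No sums overlapped (log2 -5.00, SE 0.27, adjusted p = 3.74e-17), and in NC library 1, which was not in the test, the values were 688 and 3566 CPM. Ccl5 was detected in 24 of 77 Gzmc-positive cells (31.2%) against 167 of 203 Gzmc-negative cells (82.3%), although the positive cells were the deeper ones. In the deeper keratin-expressing cells 27.0% held a Ccl5 UMI, and 7.37% did at equal depth, against 2.42% and 0.313% for Nkg7. The source of the Ccl5 UMIs in keratin-expressing cells was not tested. The difference passed in all 9 alternatives tried, with a log2 value between -4.07, when only cells above the median depth were used, and -5.76, when each cell was thinned to 1000 UMIs. Gzma had 8807, 2685 and 9012 CPM in Gzmc-positive cells against 8095, 4112 and 7248 CPM in Gzmc-negative cells and did not pass (log2 -0.02, SE 0.21, adjusted p = 0.987). A single Gzmc-positive cell of NC library 2 held 239 of the 379 Gzma UMIs behind the 9012 CPM. Gzma was detected in 51 of 77 Gzmc-positive cells (66.2%) against 173 of 203 Gzmc-negative cells (85.2%), and its share was lower in the Gzmc-positive cells of each of the 3 libraries.

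**Figure D3:**
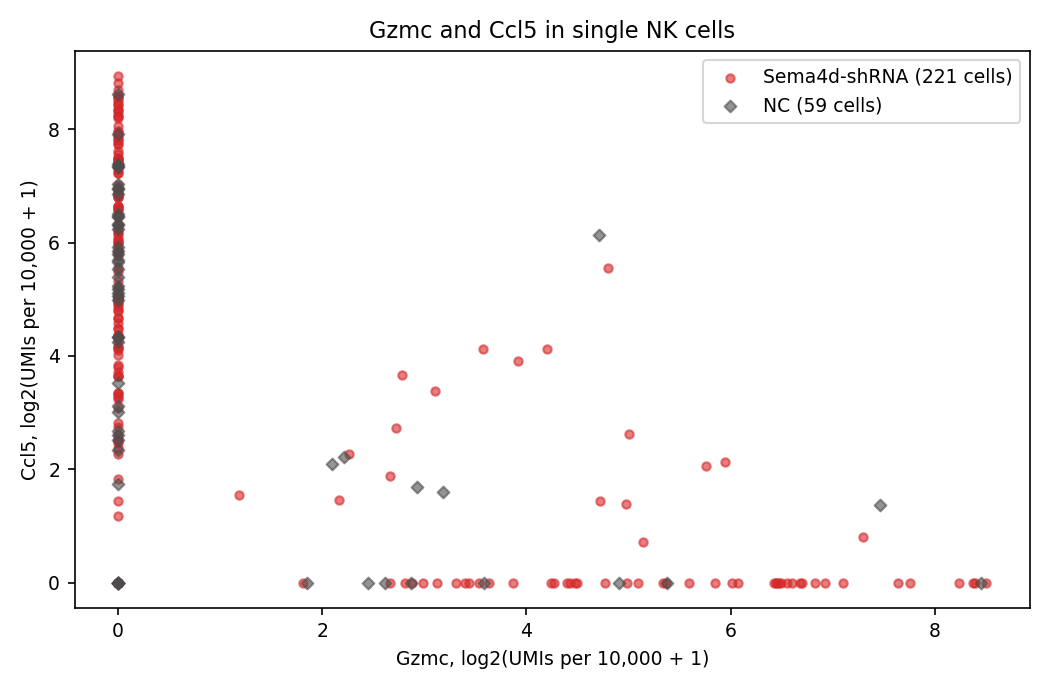
Gzmc (horizontal) and Ccl5 (vertical) in single NK cells, as log2(UMIs per 10,000 + 1), with 221 cells of Sema4d-shRNA and 59 of NC tumours. Of the 203 cells without Gzmc 167 hold Ccl5, and of the 77 cells with Gzmc 24 do.

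Other effector genes rose with Gzmc. Of 16 granule genes tested Gzmb, Gzmf, Gzmd and Gzme were higher and none lower. Gzmb had 3753, 2645 and 2544 CPM in Gzmc-positive cells against 2173, 736 and 1634 CPM in Gzmc-negative cells (log2 1.18, SE 0.23, adjusted p = 0.00115), and the call was lost without Sema4d-shRNA library 2 (0.76) and at equal depth (0.49). Gzmf, whose upstream stretch is printed above beside that of Gzmc, had 3149, 1234 and 618 CPM against 0 CPM in each library of the Gzmc-negative cells. It was at least 300-fold higher against a floor of 3 counts over the negative cells, and at least 122-fold higher without the cells that carry tumour RNA. Those UMIs came from 11 of 77 cells, and 1 cell of Sema4d-shRNA library 2 that also carried tumour RNA held 307 of that library's 311. Gzmd and Gzme were at least 83.3-fold and 41.2-fold higher, and at least 14.6-fold and 7.61-fold higher without the cells that carry tumour RNA. In Sema4d-shRNA library 2 the same cell held 144 of 175 Gzmd UMIs and 70 of 83 Gzme UMIs. How far sequence shared with Gzmc contributed to these counts was not tested. Prf1 did not pass (log2 0.74, SE 0.25, adjusted p = 0.148).

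Among chemokines and cytokines Xcl1 and Spp1 were higher in Gzmc-positive cells and Ccl5 alone was lower, of 7 tested. Xcl1 had 1886, 2594 and 1569 CPM in Gzmc-positive cells against 620.1, 869 and 971 CPM in Gzmc-negative cells (log2 1.42, SE 0.23, adjusted p = 9.7e-05), with no overlap, and passed in 8 of 9 alternatives. Spp1, which encodes osteopontin, was higher by 1.36 (SE 0.26, adjusted p = 0.000911) and by 2.14 without the cells that carry tumour RNA. Ccl4, made by the same kinds of cell as Ccl5, had 734, 159 and 95.1 CPM in Gzmc-positive cells against 1130, 820.2 and 1161 CPM in Gzmc-negative cells (log2 -1.69, adjusted p = 0.0686).

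Surface and signalling genes also differed. Tnfrsf9, a costimulatory receptor induced on activated NK and T cells, had 948, 674 and 999 CPM in Gzmc-positive cells against 370.1, 119.7 and 332 CPM in Gzmc-negative cells (log2 1.88, SE 0.26, adjusted p = 5.94e-06). Thy1 had 697, 575 and 262 CPM against 255, 190.1 and 47.4 CPM in Gzmc-negative cells (log2 1.66, SE 0.26, adjusted p = 6.48e-05). Ifitm1, an interferon-induced membrane protein, had 1263, 639 and 143 CPM against 14.4, 35.2 and 0 CPM in Gzmc-negative cells (log2 5.13, SE 0.39, adjusted p = 9.81e-13). It came from 12 of 77 Gzmc-positive and 4 of 203 Gzmc-negative cells, so few cells carried it. Ifitm2 (1.74), Atf3 (2.09), Cd69 (1.21), Rgs1 (1.32) and Dut (1.12) were also higher. Ifitm2 passed in 9 of 9 alternatives and Rgs1 in 6 of 9, but Cd69 in 4 of 8, Atf3 in 3 of 7 and Dut in 1 of 8. Lineage genes did not pass, with log2 differences of 0.05 for Eomes, -0.02 for Tyrobp and 0.41 for Car2.

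Of the 22 genes lower in Gzmc-positive cells, several were tumour or stromal genes rather than lymphocyte genes: Ccnd1 (log2 -2.63), Timp1 (-2.03), Cald1 (-1.87), Sparc (-1.42), Cnn3, Mgp and Fn1. Of the 14 cells with tumour RNA, 11 were Gzmc-negative, as were 203 of all 280 NK cells. The tumour or stromal genes just named all belong to the 8 that chose these 14 cells. A smaller gap without the cells is therefore built into that choice. Without those 14 cells Sparc had 74.3, 97.8 and 71.3 CPM in Gzmc-positive cells against 68.0, 167 and 71.1 CPM in Gzmc-negative cells. Interferon response genes Isg15 (log2 -2.18, SE 0.33), Gbp2 and Irgm1 were lower as well, 3 of 15 tested. Hcst, the adaptor of Klrk1, was lower by -1.25 (SE 0.30, adjusted p = 0.0193) and passed in 3 of 9 alternatives. Without the cells that carry tumour RNA 24 genes were called, 13 of them shared with the 41, and Ccl5 (-5.34), Ifitm1 (4.62), Xcl1 (1.10) and Tnfrsf9 (1.74) were among those that passed. Without Sema4d-shRNA library 2, which held 43 of the 73 positive cells in the test, 9 genes were called.

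**Figure D4:**
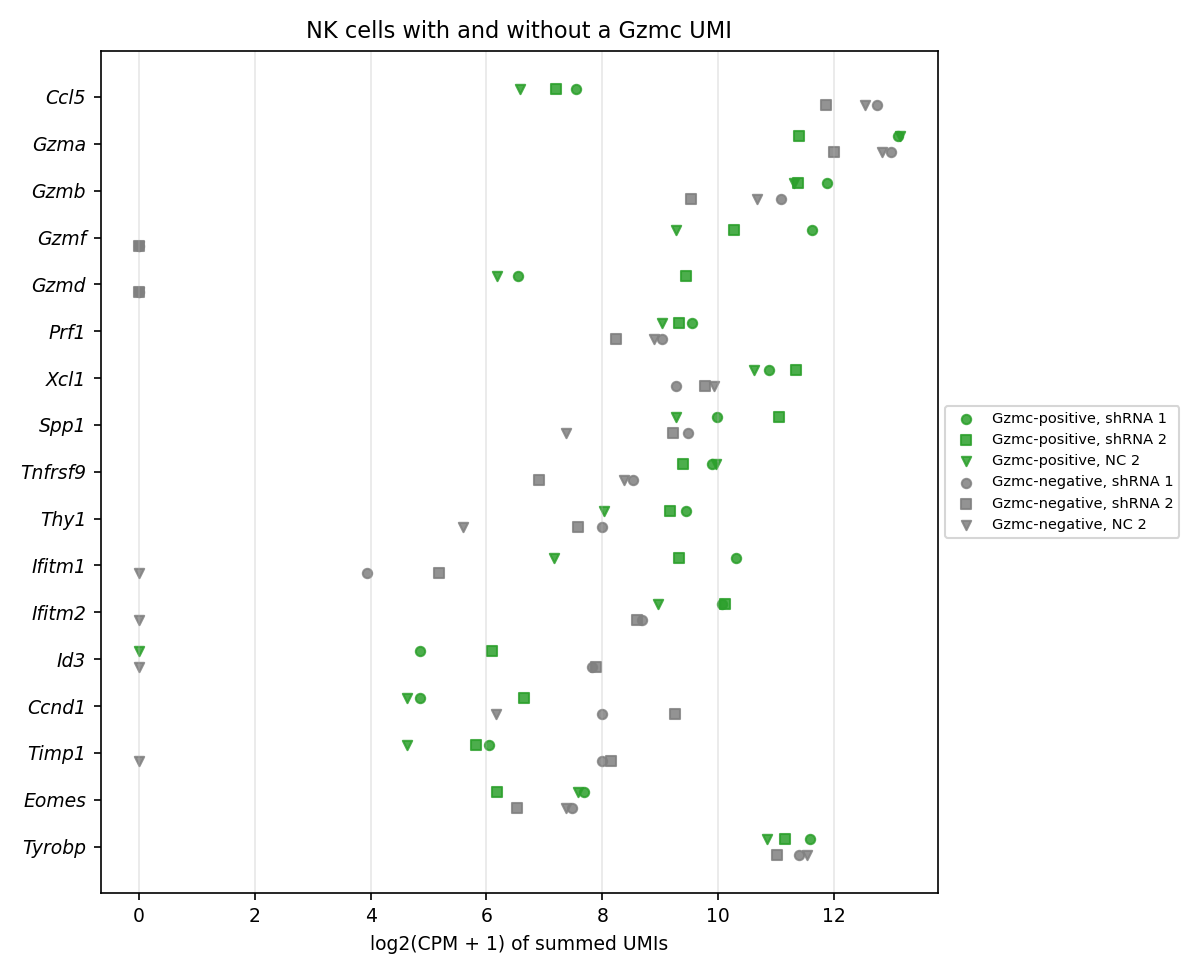
Expression of 17 genes in Gzmc-positive NK cells (upper points of each row) and Gzmc-negative NK cells (lower points), as log2(CPM + 1) of UMIs summed in 3 libraries. Ccl5 is lower and Gzmb, Xcl1, Tnfrsf9, Thy1 and Ifitm1 are higher in Gzmc-positive cells of each of the 3 libraries, and Gzma overlaps.

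Last, NK cells of Sema4d-shRNA tumours were compared with NK cells of NC tumours. Of 2830 genes tested on the 4 sums, 3 were higher with Sema4d-shRNA (0.106%) and 10 lower (0.353%), 0.459% together, with a median log2 difference of 0.02, and 217 had an unadjusted p under 0.05. No gene of the receptor, adaptor, granule, cytokine, homing or transcription factor lists passed. Spp1 came nearest, with 814 and 1305 CPM with Sema4d-shRNA against 335 and 392 CPM with NC (log2 1.62, SE 0.30, adjusted p = 0.0502), and it passed in 7 of 12 alternatives. It is also on the macrophage list given above, and the source of its UMIs was not tested. Gzma had a log2 difference of -0.42 (SE 0.34, adjusted p = 0.812), Gzmb of 0.20 (SE 0.25, adjusted p = 0.888), Prf1 of 0.17 (SE 0.25, adjusted p = 0.895) and Ccl5 of 0.18 (SE 0.31, adjusted p = 0.912). Ifng and Xcl1 had larger but variable differences of 0.79 (SE 0.51, adjusted p = 0.753) and 0.84 (SE 0.47, adjusted p = 0.721). Gzmc had 3047 and 3598 CPM with Sema4d-shRNA and 105 and 3774 CPM with NC (log2 0.88, SE 1.70, adjusted p = 0.938), and the NC libraries lay on both sides of the others. In simulated data of this size, with the same fixed dispersion for every gene, the test recovered 56.6% of 4-fold and 2.33% of 2-fold changes. Most 2-fold differences may thus have been missed.

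The 3 higher genes were Ifitm1, S100a4 and Ifitm2, each close to the threshold. With DESeq2's size factors in edgeR 0 genes were higher and 10 lower (214 with an unadjusted p under 0.05), since the adjusted p of Ifitm1 and S100a4 became 0.0506 and that of Ifitm2 0.0552. With no filter on low counts 28 were higher and 13 lower. Ifitm1 had 440.3 and 319 CPM with Sema4d-shRNA against 0 and 71.2 CPM with NC (log2 3.53, SE 0.63, adjusted p = 0.0433). Its UMIs came from 16 of the 280 NK cells, and with each cell thinned to 1000 UMIs the log2 difference was 1.84 and did not pass. In Cd3 cells it had 689.9 and 417 CPM with Sema4d-shRNA against 234 and 239 CPM with NC (log2 1.24, SE 0.22, adjusted p = 0.0809). S100a4, a calcium-binding protein abundant in the tumour cells, had 1001 and 1843 CPM with Sema4d-shRNA against 451 and 368 CPM with NC (log2 1.86, SE 0.33, adjusted p = 0.0433). Without the cells that carry tumour RNA it had 464 and 570.0 CPM with Sema4d-shRNA against 141 and 368 CPM with NC (log2 1.06, adjusted p = 0.253). Ifitm2 had 634 and 725 CPM with Sema4d-shRNA against 283 and 249 CPM with NC (log2 1.42, SE 0.26, adjusted p = 0.0489), and it did not pass without those cells (adjusted p = 0.175).

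Of the 10 lower genes 8 were mitochondrially encoded, from 10 tested, with a median log2 difference of -1.81. For mt-Co1, a subunit of cytochrome oxidase, NK cells had 646 and 994 CPM with Sema4d-shRNA against 3668 and 3109 CPM with NC (log2 -1.97, SE 0.25, adjusted p = 0.0109). The same gene had 807 and 1255 CPM with Sema4d-shRNA against 3195 and 3025 CPM with NC in Cd3 cells, and 737 and 1028 CPM against 1949 and 1680 CPM in keratin-expressing cells. The difference was thus present in 3 kinds of cell. The interaction between NK and Cd3 cells did not pass for mt-Co1 (log2 -0.32, SE 0.17, adjusted p = 0.854), which does not show that both sets changed alike. Gm26870, a long non-coding RNA at chr9:3000282-3038313, had 9.5 and 7.46 CPM with Sema4d-shRNA against 472 and 189.9 CPM with NC (log2 -5.20, SE 0.56, adjusted p = 0.00677). It too was lower in the other sets, at 22.9 and 44.3 CPM with Sema4d-shRNA against 679.8 and 180.3 CPM with NC in Cd3 cells and 11.7 and 7.08 CPM against 250.05 and 51.6 CPM in keratin-expressing cells. Mbd5, a methyl-CpG-binding domain protein, had 6.34 and 7.46 CPM with Sema4d-shRNA against 62.9 and 71.2 CPM with NC (log2 -3.10, SE 0.51, adjusted p = 0.0343). It rested on few UMIs, and was tested in only 5 of 12 alternatives and passed in 4. Gm26870 and Mbd5 met the low-count filter only through the NC libraries, where they were high, so their calls are descriptions. A difference between libraries in handling and an effect of the knockdown cannot be told apart with 2 tumours per group.

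Sema4d in NK cells had 114 and 91.4 CPM with Sema4d-shRNA against 367 and 189.9 CPM with NC, and the difference did not pass (log2 -1.41, SE 0.37, adjusted p = 0.244). Cd3 cells had 162 and 166 CPM with Sema4d-shRNA against 206 and 246 CPM with NC (log2 -0.43, SE 0.16, adjusted p = 0.823). In Cd3 cells 2 of 7766 genes were higher with Sema4d-shRNA (0.0258%) and 13 lower (0.167%), 0.193% together. Neither cell set is derived from the line that carried the hairpin.

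**Figure D5:**
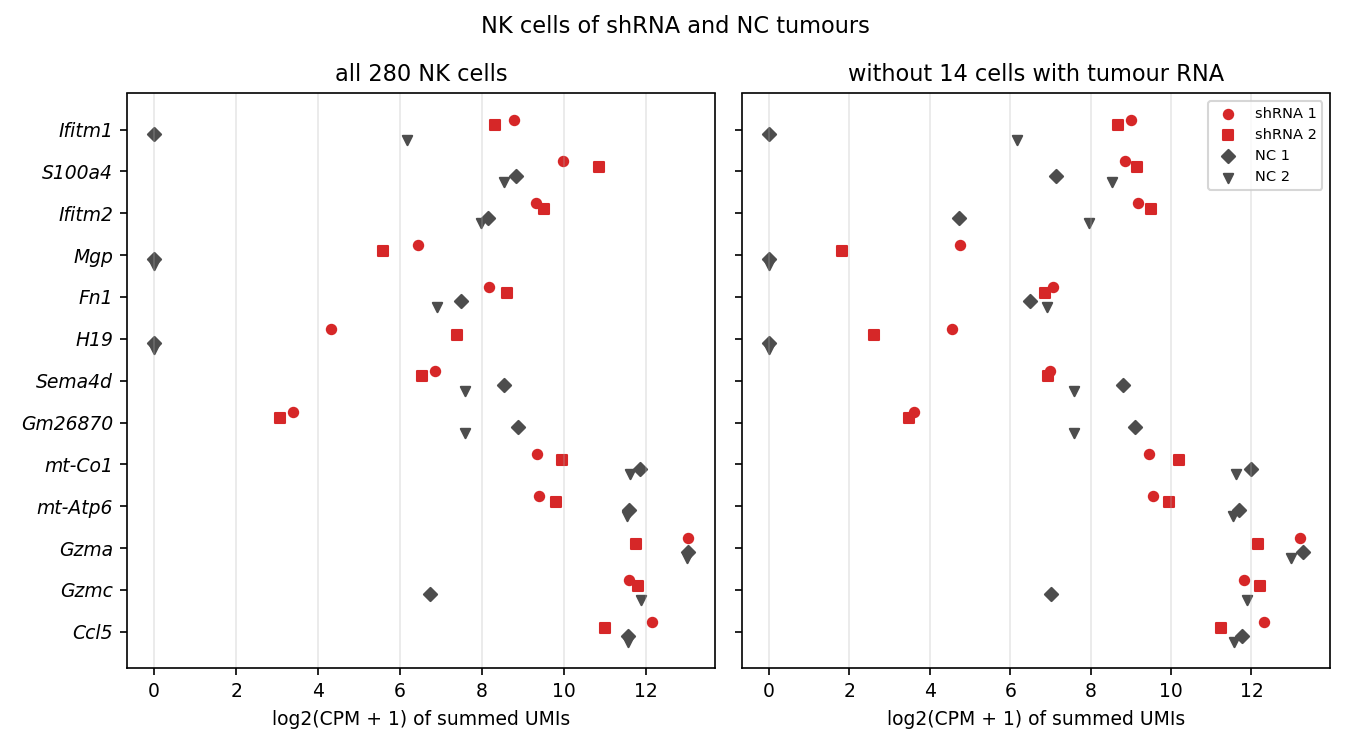
Expression of 13 genes in NK cells of Sema4d-shRNA and NC libraries, as log2(CPM + 1) of summed UMIs, with all 280 NK cells (left) and without the 14 cells that carry tumour RNA (right). The means of S100a4, Fn1 and Mgp move closer together on the right, and the gaps of mt-Co1, mt-Atp6 and Gm26870 remain. Fn1, Mgp and H19 are among the 8 genes that chose the cells left out.

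Whether the shRNA difference itself was unlike between NK and Cd3 cells was tested as an interaction. Of 6798 genes 6 had a more positive difference in NK cells (0.0883%) and none a more negative one, and 418 had an unadjusted p under 0.05. With DESeq2 1 of the 6 passed. All 6 had a higher mean level in keratin-expressing cells than in NK cells, and they are described with the closer-look results. The test recovered 0% of simulated 4-fold interactions, where every gene had the same fixed dispersion. In the data it called S100a6 at a log2 interaction of 1.23, so the simulation does not match the data in this. Genes that did not pass may still differ between the 2 cell sets.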

How the data were processed

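The series holds 4 droplet single-cell libraries, 2 Sema4d-shRNA and 2 NC. The authors deposited a sparse matrix of raw UMI counts per library, which they did not normalise as far as the whole-number values show. STAR 2.5.1b and the builds GRCh38 and mm10 are named in the submitters' processing notes. Which annotation and strand setting were used, and how cells were called, is not stated in those notes. Every cell held at least 1000 UMIs.

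The members, gene lists and the Gzmc split were chosen with earlier results of these data known. NK and Cd3 cells were set by the UMI limits given in the report, and Cd3 cells shared its keratin, C1q and Csf1r limits. Cells with at least 300 genes numbered 45099. Keratin-expressing cells passed the keratin limit that NK cells had to stay under, and C1q macrophages held Csf1r and C1q UMIs. Cell names repeat between libraries, and 0 cells had identical counts in a pair of libraries. Doublets were scored per library with scrublet (scanpy 1.11.5). Its threshold marked 0, 0 and 0 cells in 3 libraries and 1.64% in NC library 2, so cells were kept and leaving out the top 6% of scores was an alternative. These included 11 of the 280 NK cells.

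UMIs were summed per library and cell set. CPM are UMIs of a gene divided by all UMIs of that sum and scaled to a common total. Sums were tested with edgeR 4.0.16 (filterByExpr, TMM, robust quasi-likelihood fit, Benjamini-Hochberg over all genes tested, threshold 0.05), with the library as a block where both cell sets came from the same library. DESeq2 1.42.0 was an alternative. Genes named are list members that passed, plus 12 genes per direction: those of largest change between NK and Cd3 cells in the same direction in all 4 libraries, and those of smallest adjusted p elsewhere. Genes that set the gates were not tested. Intervals of shares are Clopper-Pearson at 95%. The scripts were tested on simulated data: for NK against Cd3 cells they recovered 71.6% of 4-fold changes, and for the Gzmc split 70.8%. Every simulated gene had the same fixed dispersion, unlike real genes. The labels do not say whether replicates are separate mice, so p-values measure only the spread between these libraries. They also do not say whether same-numbered libraries were handled together, so the replicate was a block only in an alternative. Some genes are not reported here.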

Additional observations from a re-analysis of the deposited data

Results flagged for a closer look

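For 6 genes the difference between Sema4d-shRNA and NC tumours was itself different in NK cells than in Cd3 cells (edgeR quasi-likelihood interaction). S100a4 had an interaction of 1.77 on the log2 scale (adjusted p = 0.000857), S100a6, another calcium-binding protein, one of 1.23 (adjusted p = 0.00431), and the predicted gene Gm42674 one of 1.93 (adjusted p = 0.0145). For the matrix genes Fn1 (fibronectin) and Mgp (matrix Gla protein) it was 1.71 (adjusted p = 0.0348) and 10.11 (adjusted p = 0.0195), and for the imprinted non-coding RNA H19 it was 10.64 (adjusted p = 0.0456). The values of Mgp and H19 depend on the prior count, since both had 0 UMIs in NK cells of both NC libraries.

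S100a6 had 4077 and 6971 CPM in NK cells with Sema4d-shRNA against 3155 and 1626 CPM with NC, and 3346 and 5481 CPM against 4350 and 3609 CPM in Cd3 cells. Fn1 had 288 and 388 CPM in NK cells with Sema4d-shRNA against 178 and 119 CPM with NC. In keratin-expressing cells S100a6 had 15256 to 19335 CPM and Fn1 had 917 to 1379 CPM. Without the cells that carry tumour RNA in both sets, S100a6 had 2477 and 2736 CPM in NK cells with Sema4d-shRNA against 1496 and 1626 CPM with NC, and Fn1 had 134 and 115 CPM against 89.5 and 119 CPM. None of the 6 genes passed in that setting, where 2 were not tested, and 347 genes had an unadjusted p under 0.05. Fn1, Mgp and H19 are among the 8 genes that chose the cells left out, so their loss is built into the setting.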

How the results depend on the processing

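Both NK shares kept their direction in every alternative. Between NK and Cd3 cells 416 genes were called, 268 with DESeq2 (265 of them shared) and 246 to 385 with 1 library left out (246 without Sema4d-shRNA library 1). Between Gzmc-positive and Gzmc-negative cells 41 were called, 14 with DESeq2, 24 without cells that carry tumour RNA, 10 at 1000 UMIs per cell, and 9 to 51 with 1 library left out (9 without Sema4d-shRNA library 2).

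Between Sema4d-shRNA and NC NK cells 13 genes were called, 41 with no filter on low counts, 8 at 1000 UMIs per cell and 14 to 32 with 1 library left out (32 without NC library 2, 27 without Sema4d-shRNA library 1). With the replicate block 39 were called. The only independent pair of same-numbered libraries correlated at r = -0.03. A single correlation cannot show whether same-numbered libraries were handled together. The interaction had 6 calls, 1 with DESeq2, 21 with no filter, 2 without the top doublet scores, 0 without cells that carry tumour RNA (unadjusted p under 0.05 for 347), 0 at 1000 UMIs per cell (142), and 15 to 25 with 1 library left out.

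Without cells that carry tumour RNA, 3 named genes changed sign and did not pass: Id3 in NK against Cd3 cells (-0.63), and Ecm1 (0.25) and Cd63 (0.37) in the Gzmc split. The settings without tumour RNA and at 1000 UMIs were chosen after seeing the data. Depth limited small changes most in the NC libraries, which held 95413 and 84271 NK UMIs.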
